A study of Mus musculus with 6 samples.

Results

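Matricellular and adhesive glycoproteins of the extracellular matrix were followed in RNA from mouse femur. The 10 genes were taken from the gene table by name, out of 34361 genes in all. They are Sparc, Fn1, Postn, Tnc, Tnn, Thbs1, Thbs2, Fbn1, Cthrc1 and Serpinf1. The table listed each of them once, and all 10 passed the filter on low counts.

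Matricellular proteins are secreted into the matrix but act mainly on how cells attach to it and receive signals, while adhesive glycoproteins such as fibronectin form the fibres that integrin receptors grip. In bone, cells of the osteoblast lineage lay down many of these proteins together with type I collagen. The periosteum, tendon and muscle connective tissue that border a long bone make several of them too.

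The study compared 3 femora from mice in which tamoxifen was used to induce a gene knockout with 3 femora from mice injected with corn oil, as the design text describes them. In the design text the deleted gene is Fshr, which encodes the follicle-stimulating hormone receptor, whereas the treatment label of these 3 samples names FGF21, so this group is called knockout-labelled here. Tamoxifen was given to the knockout-labelled mice alone, and drug and knockout therefore cannot be told apart. The sources used here do not give age, sex, strain, the allele, any Cre driver or whether these mice were ovariectomized.

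Libraries were poly(A)-selected, and each held 65.8 to 73.5 M estimated counts, or about 16.4 to 18.4 M read pairs if a pair adds 4 counts. Fshr and Fgf21 had 0 counts in all 6 libraries, which allows up to 0.163 to 0.182 CPM (counts scaled to depth, a floor of 12 counts, covering counting error only), so neither label could be checked. Replicates within a group lay close together, with a median variance 1.38 to 2.89 times that of counting noise, and whether the 3 libraries of a group came from separate animals could not be checked. SD, SE, n and p-values therefore describe only the spread between these libraries, which may be technical. Osteoblast markers, which mark the bone-forming cells, summed to 2449 to 2488 FPKM (fragments per kilobase of transcript, scaled to depth) in knockout-labelled libraries, against 12820 to 12882 FPKM in controls, and all 8 were lower. Skeletal muscle markers summed to 31052 to 31609 FPKM in knockout-labelled libraries, against 6571 to 6771 FPKM in controls, and all 8 were higher. In bulk RNA, fewer cells of a type and less RNA per cell cannot be told apart. The osteoblast and muscle markers moved with every difference below, and their part in it was not tested.

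Of the 10 genes, 9 were lower and 1, Tnn, was higher in knockout-labelled femora (edgeR quasi-likelihood test, adjusted p under 0.05). The background is large, since 57.5% of the 20388 genes tested passed the same threshold, 28.8% lower and 28.7% higher. The median log2 fold change of the 10 genes was -1.13, beside -0.02 over all genes tested. In none of the 10 genes did the groups overlap, which also held for 64.4% of all genes tested. Together the 10 genes held 0.473% ± 0.0014 of all counts in knockout-labelled libraries and 1.84% ± 0.0098 in controls (SD, n = 3 each).

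**Figure D1:**
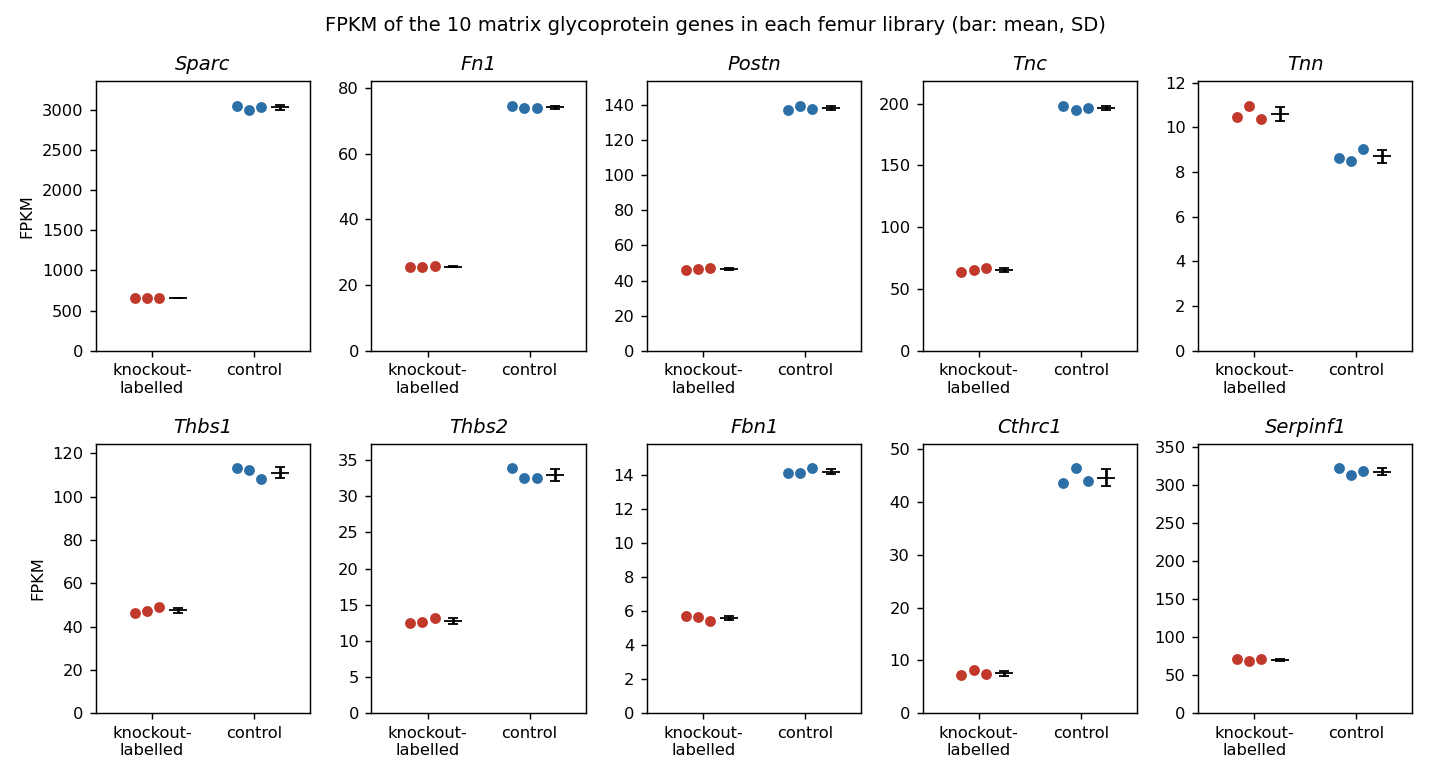
FPKM of each of the 10 genes in the 3 knockout-labelled libraries (left) and the 3 control libraries (right), each panel with its own linear axis from 0; points are libraries and bars are means with the SD. All knockout-labelled points lie below all control points in 9 panels, and Tnn shows the opposite order.

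Fold changes below are scaled by TMM, which sets them relative to the bulk of genes, while FPKM values are given as deposited. The FPKM ratio of the groups is therefore further from 1 for a lowered gene than its fold change. Scaling by library totals moved the median gene by -0.42 on the log2 scale, and TPM moved it by -0.73. With library totals 10339 of the 20388 genes tested were called lower and 3379 higher. With TPM 10738 of 13778 were called lower and 1832 higher. Levels of different genes are compared in FPKM, which is per length, although the deposited gene FPKM is not the sum of its transcripts' FPKM. It was 0.355 to 0.359 times that sum for Postn and 0.57 to 0.583 times for Sparc, but 1.0 times for Tnn.

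Sparc encodes osteonectin, a collagen-binding and calcium-binding glycoprotein that is among the most abundant non-collagenous proteins of bone. The gene (ENSMUSG00000018593, chr11:55285326-55314009, minus strand, GRCm39) was at 651.0, 650.0 and 651.0 FPKM in knockout-labelled femora, against 3052, 2999 and 3040 FPKM in controls. Its level was the highest of the 10 genes in every library, and the knockout-labelled values stood at 21.5% of the control mean. Ranked by mean FPKM, Sparc was number 56 of all genes in knockout-labelled femora and number 16 in controls. The log2 fold change was -1.79 (SE 0.0074, edgeR adjusted p = 8.6e-18).

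Serpinf1 encodes pigment epithelium-derived factor, a secreted non-inhibitory serpin that binds collagen, restrains vessel growth and is required for normal bone mineralization in people. The gene (ENSMUSG00000000753, chr11:75300595-75313527, minus strand) was at 71.19, 69.08 and 70.84 FPKM in knockout-labelled femora, against 321.6, 312.5 and 317.5 FPKM in controls. The groups were far apart, and the log2 fold change was -1.75 (SE 0.018, edgeR adjusted p = 1.1e-14).

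Cthrc1, a secreted glycoprotein with a short collagen-like repeat that is made by activated stromal cells, had the largest fold change of the 10 with TMM. The gene (ENSMUSG00000054196, chr15:38940327-38950516, plus strand) was at 7.23, 8.11 and 7.39 FPKM in knockout-labelled femora, against 43.45, 46.3 and 43.85 FPKM in controls. Knockout-labelled libraries thus held 17% of the control FPKM. The log2 fold change was -2.13 (SE 0.058, edgeR adjusted p = 1.4e-11). Under quantile normalization in limma Sparc came first instead, at -2.74 beside -2.20 for Cthrc1.

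The promoters of Sparc and Serpinf1 are shown because both genes were lowered by a similar amount and both windows hold the letters TGTGGT, the core of the motif bound by RUNX factors such as the osteoblast regulator Runx2. They come from RefSeq (GRCm38.p6) and run from 250 bases before to 50 bases after the annotated start, 5′ to 3′ on the gene's strand, with the motif on either strand in capitals. RefSeq promoters were matched for 7 of the 10 genes, with 9 promoters in all.
Sparc promoter (chr11:55420031-55420330, minus strand): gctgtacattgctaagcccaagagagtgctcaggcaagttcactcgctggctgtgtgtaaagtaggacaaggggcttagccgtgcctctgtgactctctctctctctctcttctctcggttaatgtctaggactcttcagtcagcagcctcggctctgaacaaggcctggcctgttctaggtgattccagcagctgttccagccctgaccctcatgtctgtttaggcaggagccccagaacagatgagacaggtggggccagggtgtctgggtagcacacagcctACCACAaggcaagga
Serpinf1 promoter (chr11:75422574-75422873, minus strand): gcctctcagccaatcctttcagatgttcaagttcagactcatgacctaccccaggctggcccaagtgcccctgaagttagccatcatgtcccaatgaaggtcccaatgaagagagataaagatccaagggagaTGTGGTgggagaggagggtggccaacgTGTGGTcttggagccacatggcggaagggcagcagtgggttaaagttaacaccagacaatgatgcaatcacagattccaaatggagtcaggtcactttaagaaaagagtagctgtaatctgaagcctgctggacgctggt
In Serpinf1 the letters start 117 and 90 bases before the annotated start, and in Sparc they lie on the opposite strand from transcribed base 36. TGTGGT occurred in 2 of the 9 promoters and in 16.8% of 32851 mouse promoters of the same length. A match of letters is a description and not a binding site.

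With TMM, Fn1, Postn and Tnc formed a group with nearly equal fold changes. Under quantile normalization in limma Fn1 was at -1.54, beside -1.86 for Postn and -1.89 for Tnc. Fn1 encodes fibronectin, which cells assemble into fibrils through integrins and on which other matrix proteins are deposited. The gene (ENSMUSG00000026193, chr1:71624679-71692334, minus strand) was at 25.49, 25.51 and 25.85 FPKM in knockout-labelled femora, against 74.72, 73.83 and 74.07 FPKM in controls. Its log2 fold change was -1.11 (SE 0.0049, edgeR adjusted p = 8.9e-14). Each group of 3 was tightly packed and the gap between groups was many times the spread.

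Postn encodes periostin, a fasciclin-domain protein of the periosteum and other load-bearing connective tissue that binds integrins and other matrix proteins. The gene (ENSMUSG00000027750, chr3:54268530-54298458, plus strand) was at 46.15, 46.41 and 47.21 FPKM in knockout-labelled femora, against 137.5, 139.8 and 137.7 FPKM in controls. The log2 fold change was -1.14 (SE 0.012, edgeR adjusted p = 6.2e-14), and the groups did not overlap.

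Tnc encodes tenascin-C, a six-armed protein that binds fibronectin and loosens cell attachment, and that is made in growing or injured skeletal tissue. The gene (ENSMUSG00000028364, chr4:63878022-63965252, minus strand) was at 64.08, 65.28 and 66.72 FPKM in knockout-labelled femora, against 198.4, 195.2 and 196.3 FPKM in controls. All 3 knockout-labelled libraries were lower, with a log2 fold change of -1.16 (SE 0.014, edgeR adjusted p = 4.4e-14). An annotated antisense RNA, 8030451A03Rik, overlaps Tnc and averaged 115.0 counts in knockout-labelled libraries and 330.0 counts in controls. How the counting treated strand was not stated in the labels, so reads of this RNA and of Tnc may not be separable, although Tnc itself held 36198 to 117331 counts.

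Tnn, which encodes tenascin-W, was the gene that was higher. Tenascin-W is a tenascin found in developing bone, periosteum and stem-cell niches. The gene (ENSMUSG00000026725, chr1:159912599-159981150, minus strand) was at 10.44, 10.97 and 10.38 FPKM in knockout-labelled femora, against 8.61, 8.48 and 9.01 FPKM in controls. The lowest knockout-labelled library was above the highest control. Its log2 fold change was 0.71 (SE 0.038, edgeR adjusted p = 1.7e-08), and it was 0.29 with library totals (edgeR adjusted p = 5.4e-05). With TPM the sign turned, at -0.06 (limma adjusted p = 0.20). The direction of Tnn on its own thus rests on the scaling, whereas its ratio to another gene within a library, given below, is the same under any factor per library.

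**Figure D2:**
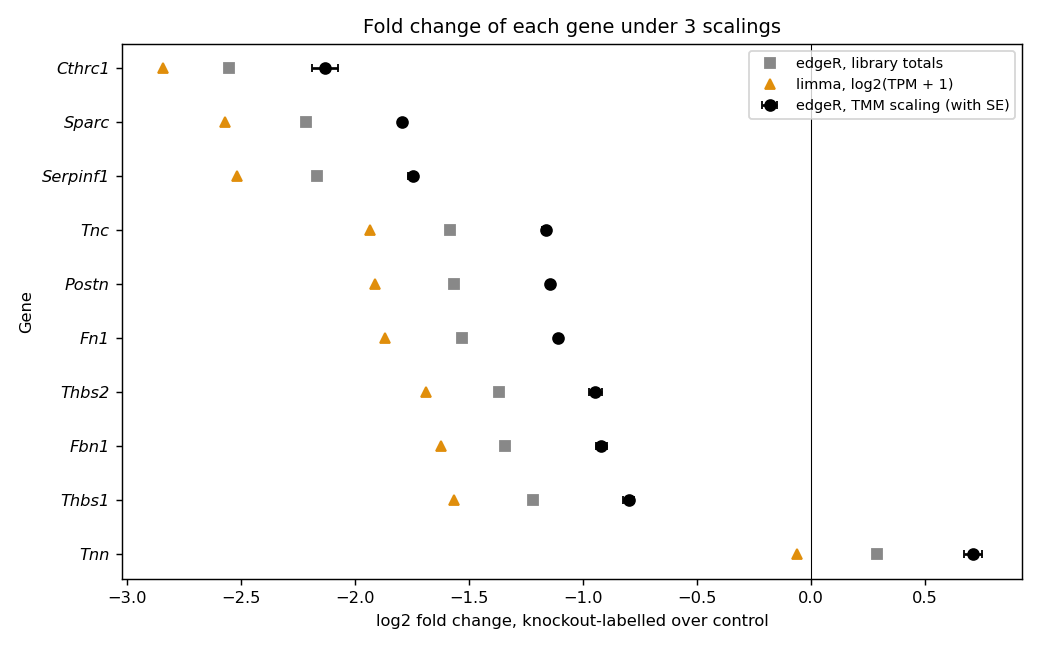
Log2 fold change (knockout-labelled over control) of the 10 genes, 1 row per gene, with TMM (black, with SE), library totals (grey) and TPM in limma (orange). Sparc moves between -1.79 with TMM and -2.57 with TPM, and Tnn alone crosses 0, between 0.71 and -0.06.

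RefSeq gives a pair of windows each for Tnc and Postn, of which 1 is shown. The 2 tenascins are set side by side with Postn because Tnn was higher while Tnc and Postn were lower. TATAAA, the TATA box letters, and GGGCGG, the core bound by SP1, are in capitals in Tnc, TATAAA alone in Postn, and GGAATG, the core bound by TEAD factors, in Tnn.
Tnc promoter (chr4:64046966-64047265, minus strand): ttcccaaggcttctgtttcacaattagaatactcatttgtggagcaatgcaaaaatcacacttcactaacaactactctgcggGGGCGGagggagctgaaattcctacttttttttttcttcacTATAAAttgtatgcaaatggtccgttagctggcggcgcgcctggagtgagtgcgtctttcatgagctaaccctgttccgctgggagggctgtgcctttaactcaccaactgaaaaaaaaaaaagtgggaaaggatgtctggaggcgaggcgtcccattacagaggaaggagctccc
Tnn promoter (chr1:160153526-160153825, minus strand): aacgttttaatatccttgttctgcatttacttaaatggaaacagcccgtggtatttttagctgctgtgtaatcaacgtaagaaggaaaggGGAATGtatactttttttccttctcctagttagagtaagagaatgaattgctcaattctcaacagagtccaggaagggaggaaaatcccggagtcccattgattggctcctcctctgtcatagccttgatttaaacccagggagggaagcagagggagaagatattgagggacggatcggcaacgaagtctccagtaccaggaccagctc
Postn promoter (chr3:54360857-54361156, plus strand): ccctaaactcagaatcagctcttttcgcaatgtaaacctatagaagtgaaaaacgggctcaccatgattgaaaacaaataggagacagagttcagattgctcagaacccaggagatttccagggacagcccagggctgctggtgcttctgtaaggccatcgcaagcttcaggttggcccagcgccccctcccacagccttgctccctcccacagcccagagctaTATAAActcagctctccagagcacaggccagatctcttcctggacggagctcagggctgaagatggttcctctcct
In the Postn window shown TATAAA starts 26 bases before the annotated start, while the other Postn window holds none of the motifs searched. In the Tnc window shown it starts 126 bases before the start, and the other Tnc window overlaps this one and holds the same letters 205 bases before its own start. That other Tnc window also holds the similar letters TATATAAG nearer to its start, which the search for exact TATAAA did not count. No TATAAA was present in the Tnn window, where GGAATG starts 160 bases before the start. Among the other lowered genes with a window, Sparc, Serpinf1 and Fbn1 also lacked TATAAA, and Thbs2 had it. Whether any of these letters bear on the direction of a gene was not tested. TATAAA on either strand occurred in 4 of the 9 promoters and in 13.6% of the 32851, with the Tnc site counted in both of its windows. GGGCGG, again counted in both Tnc windows, occurred in 3 of the 9 and in 35.7% of all, and GGAATG in 1 of the 9 and in 14.7% of all. The AP-1 letters TGANTCA occurred in 0 of the 9 and in 7.81% of all.

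Thbs1 and Thbs2 encode the trimeric thrombospondins, which bind the receptors Cd36 and Cd47 and restrain vessel growth. Thrombospondin-1 also activates latent TGF-beta. Thbs1 (ENSMUSG00000040152, chr2:117942357-117957614, plus strand) was at 46.52, 47.16 and 48.94 FPKM in knockout-labelled femora, against 113.1, 112.1 and 108.1 FPKM in controls. With TMM it had the smallest fall of the 9, at a log2 fold change of -0.80 (SE 0.026, edgeR adjusted p = 2.8e-11). Under quantile normalization Fbn1 at -1.12 and Thbs2 at -1.15 fell less than Thbs1 at -1.18, and with limma on log2(FPKM + 1) Fbn1 and Thbs1 were both at -1.21. Platelets carry thrombospondin-1, and the 5 megakaryocyte and platelet markers summed to 302.6 to 313.3 FPKM in knockout-labelled libraries, against 394.5 to 410.5 FPKM in controls. Their part in the Thbs1 difference was not tested. By edgeR with TMM 0 of the 5 passed (1 at an unadjusted p under 0.05), and by DESeq2 1 was higher. With library totals 4 were lower, beside 10339 of all 20388 genes tested.

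Thbs2 (ENSMUSG00000023885, chr17:14885762-14914497, minus strand) was at 12.45, 12.55 and 13.2 FPKM in knockout-labelled femora, against 33.84, 32.48 and 32.48 FPKM in controls. The groups did not overlap, and the log2 fold change was -0.95 (SE 0.029, edgeR adjusted p = 5.3e-11). The FPKM ratio of the pair, Thbs1 over Thbs2, was 3.73 ± 0.025 in knockout-labelled femora and 3.37 ± 0.067 in controls (SD, n = 3 each), a difference of 0.15 on the log2 scale (exact permutation p = 0.1, the smallest that 3 against 3 allows).

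Fbn1 encodes fibrillin-1, the main subunit of the microfibrils that carry elastin and store latent TGF-beta, and its mutation causes Marfan syndrome in people. The gene (ENSMUSG00000027204, chr2:125142514-125348305, minus strand) was at 5.70, 5.65 and 5.46 FPKM in knockout-labelled femora, against 14.13, 14.12 and 14.42 FPKM in controls. Its level was the lowest of the 10 genes in knockout-labelled femora, and its log2 fold change was -0.92 (SE 0.025, edgeR adjusted p = 8.2e-11).

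How far the genes moved together was measured by the ratio to Sparc within each library. Such ratios do not depend on a scaling factor per library. The Serpinf1 to Sparc ratio was 0.108 ± 0.0016 in knockout-labelled femora and 0.105 ± 0.00061 in controls, a difference of 0.05 on the log2 scale. The Cthrc1 to Sparc ratio was 0.0116 ± 0.00073 in knockout-labelled femora and 0.0147 ± 0.00065 in controls, a difference of -0.34 (SD, n = 3 each).

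Like Serpinf1, the other 7 genes had a higher ratio to Sparc in all 3 knockout-labelled libraries than in any control. Sparc itself was at -1.79, so a gene at the median of all genes tested, -0.02, would also have a higher ratio. The share of all genes with such a ratio, or with groups that do not overlap in it, was not computed. The log2 differences in the ratio were 0.63 for Tnc, 0.65 for Postn and 0.69 for Fn1. Thbs2, Fbn1 and Thbs1 followed at 0.85, 0.88 and 0.99 on the same scale. Tnn stood apart, with a ratio to Sparc 5.67-fold higher in knockout-labelled femora. The Tnc to Tnn ratio was 6.17 ± 0.24 in knockout-labelled femora and 22.6 ± 0.72 in controls (SD, n = 3 each), so the 2 tenascins moved apart by -1.87 on the log2 scale. In each of the 11 ratios computed the groups did not overlap, and each had an exact two-sided permutation p of 0.1, also 0.1 after Benjamini-Hochberg adjustment over the 11, which is the smallest this design allows.

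**Figure D3:**
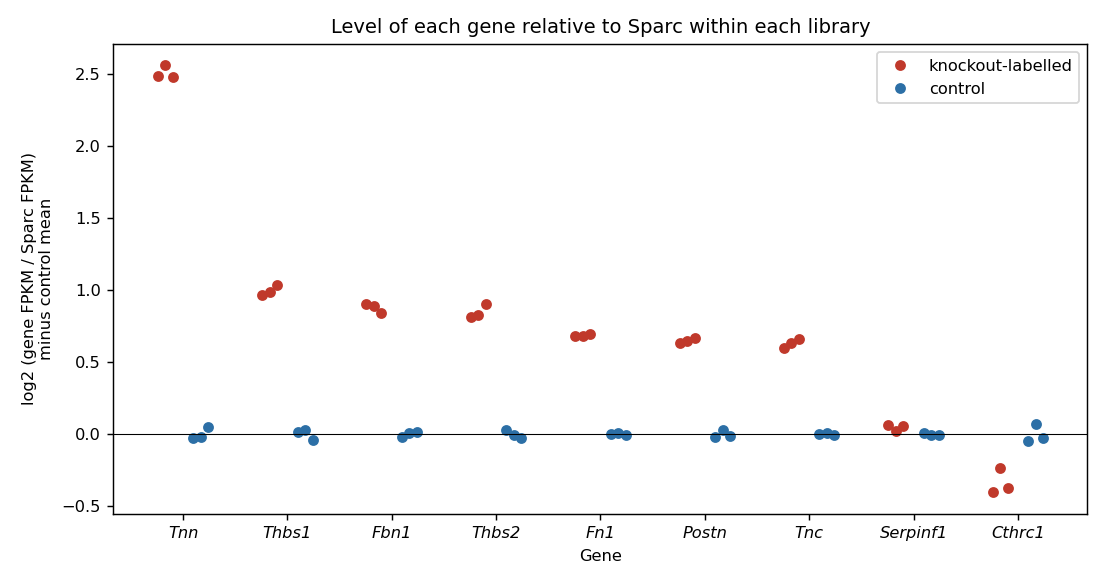
Log2 ratio of each gene's FPKM to Sparc FPKM in each library, minus the mean of the controls, with a point per library and knockout-labelled libraries left of controls. In the mean over knockout-labelled libraries Serpinf1 is at 0.05, Cthrc1 at -0.34, 6 genes lie between 0.63 and 0.99, and Tnn is at 2.50.

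The genes outside the list whose pattern was most like the median of the 10 were sought among 10485 candidates, by the root mean square difference of log2 CPM over the 6 libraries. Maged1, Ngp, Hexa, Igfbp4, Shox2 and Sbno2 came first, with differences of 0.0171 for Maged1 to 0.0285 for Sbno2. Ngp, for example, a neutrophil granule gene, had a log2 fold change of -1.11. In all, 191 of the 10485 candidates lay within 0.1, so this pattern is shared by many genes.

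Transcripts of the 10 genes were much noisier than the genes. Among transcripts with a mean of at least 2 FPKM the coefficient of variation within a group was 2.37% to 172% with a median of 27.8%, against 0.0861% to 6.22% with a median of 1.81% for the genes. The table holds 57 transcripts of these genes, of which 47 were tested, 19 fell, 1 rose and 27 did not pass (edgeR, adjusted over all transcripts). Over all 47621 transcripts tested, 18.1% passed, and 7.93% passed as lower. The count of 19 was 9 without control replicate 2 and 9 without control replicate 3.

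In genes with 1 dominant transcript the transcript followed the gene. The main Cthrc1 transcript, ENSMUST00000067072, was at 9.4, 10.9 and 9.93 FPKM in knockout-labelled femora, against 58.0, 60.8 and 57.7 FPKM in controls. Its log2 fold change was -2.10 (edgeR adjusted p = 2.5e-05). The main Tnn transcript, ENSMUST00000039178, made up all or nearly all of the gene in every library and had a log2 fold change of 0.74 (edgeR adjusted p = 0.00028).

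Other genes divided their signal unevenly between replicates. The Serpinf1 transcript ENSMUST00000167281, annotated as a target of nonsense-mediated decay, was at 1.24, 1.12 and 34.5 FPKM in knockout-labelled femora, against 2.86, 153 and 157 FPKM in controls. One library of each group thus stood apart from its other two, while the gene as a whole varied little. Sparc had a pair of main transcripts, ENSMUST00000108858 and ENSMUST00000018737. The first was at 812, 483 and 853 FPKM in knockout-labelled femora, against 3384, 2477 and 3109 FPKM in controls. Both were lower, with log2 fold changes of -1.61 and -1.99 (edgeR adjusted p = 0.0094 and 0.012).

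Fibronectin and periostin are known for exons that are spliced in or out, so the share of full-length transcripts that carry each such exon was computed, a measure chosen after the transcript values were seen. The EDA exon of Fn1 encodes an extra fibronectin type III repeat that plasma fibronectin lacks, and the Postn exons encode segments near the end of the protein. The exons are shown from GENCODE M21 (GRCm38), in capitals with 15 bases of the neighbouring exons in lower case, 5′ to 3′ on the gene's strand.
Fn1 EDA exon (chr1:71603660-71603929, minus strand): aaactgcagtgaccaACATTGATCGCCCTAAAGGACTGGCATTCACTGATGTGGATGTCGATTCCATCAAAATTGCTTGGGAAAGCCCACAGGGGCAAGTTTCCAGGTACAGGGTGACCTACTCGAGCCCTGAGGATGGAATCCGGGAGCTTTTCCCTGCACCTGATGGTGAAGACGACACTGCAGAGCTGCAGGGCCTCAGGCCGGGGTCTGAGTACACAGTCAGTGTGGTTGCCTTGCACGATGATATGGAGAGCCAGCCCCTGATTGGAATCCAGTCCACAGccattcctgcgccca
Postn 81-base exon (chr3:54380412-54380492, plus strand): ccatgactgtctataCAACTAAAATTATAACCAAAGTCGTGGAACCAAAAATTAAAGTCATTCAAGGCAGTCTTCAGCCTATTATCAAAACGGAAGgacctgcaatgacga
Postn 84-base exon (chr3:54385671-54385754, plus strand): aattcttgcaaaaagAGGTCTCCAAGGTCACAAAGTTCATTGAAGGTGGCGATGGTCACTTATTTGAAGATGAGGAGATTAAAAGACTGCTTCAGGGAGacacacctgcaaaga
The lengths of all 57 transcripts in the deposited table equal those of GENCODE M21.

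The EDA exon was carried by 26.3%, 68.3% and 23.4% of the full-length Fn1 transcript FPKM in knockout-labelled femora, against 75.2%, 71.5% and 70.5% in controls. The groups did not overlap (exact two-sided permutation p = 0.1, the smallest possible), but knockout-labelled replicate 2 lay close to the controls. The most abundant Fn1 transcript in knockout-labelled replicates 1 and 3, ENSMUST00000186129, which lacks EDA, was at 23.1, 4.63 and 26.3 FPKM in knockout-labelled femora, against 7.95, 6.75 and 16.3 FPKM in controls. Its change relative to the rest of Fn1 did not pass (diffSpliceDGE in edgeR, adjusted p = 0.082). Of the 46 transcripts of the 10 genes in that test 0 passed, and 2 had an unadjusted p under 0.05. On simulated counts with the spread of real transcripts, diffSpliceDGE recovered 0 of 66, 0 of 67 and 0 of 64 changed transcripts. These were changed 1.5-fold, 2-fold and 4-fold, and 37 unchanged transcripts were called. A transcript that did not pass this test therefore carries little weight.

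The EDB exon of Fn1, a second optional repeat, was in 10.2%, 25.9% and 8.12% in knockout-labelled femora, against 21.1%, 15.7% and 35.0% in controls, and the groups overlapped (exact permutation p = 0.3). The Postn 81-base exon was in 13.9%, 6.18% and 5.54% in knockout-labelled femora, against 4.7%, 4.88% and 5.92% in controls (exact permutation p = 0.2). The Postn 84-base exon was in 74.8%, 66.1% and 47.7% in knockout-labelled femora, against 50.8%, 54.3% and 50.2% in controls (exact permutation p = 0.4). An optional exon of Tnc, also overlapping between groups, was in 17.2%, 11% and 20.9% in knockout-labelled femora, against 15.7%, 13.7% and 0.904% in controls (exact permutation p = 0.4). In each of these 4 exons the range within at least 1 group was wider than the gap between the group means.

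**Figure D4:**
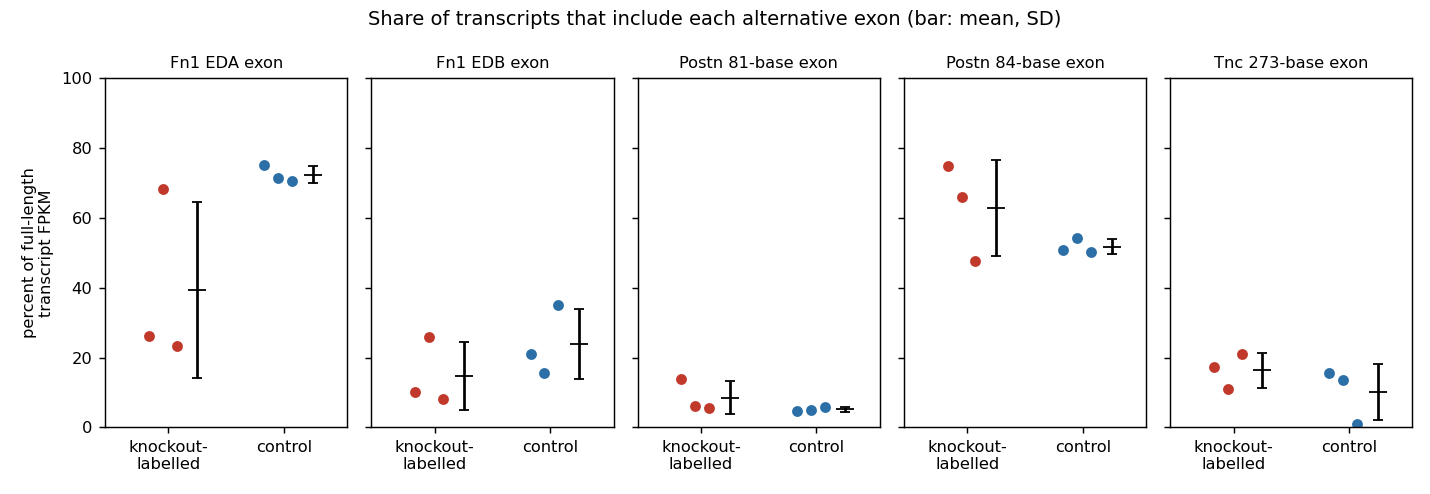
Percent of full-length transcript FPKM that carries each optional exon, per library, with knockout-labelled libraries left of controls and bars for the mean and SD. For Fn1 EDA the controls lie at 70.5% to 75.2% and the knockout-labelled libraries at 23.4%, 26.3% and 68.3%, and the groups overlap for the other 4 exons.

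The relatives of these genes did not move as one. Of the 5 paralogs among thrombospondins and tenascins, 1 was lower and 3 were higher, while Tnr was too low to test. Thbs4, which is made in muscle and tendon, averaged 67.74 ± 3.2 FPKM in knockout-labelled femora and 128.5 ± 3.3 FPKM in controls (SD, n = 3 each), with a log2 fold change of -0.50. Comp, a cartilage and tendon thrombospondin, averaged 41.25 ± 0.911 FPKM in knockout-labelled femora and 25.36 ± 0.626 FPKM in controls (SD, n = 3 each), at 1.13. Tnxb, the tenascin of loose connective tissue, had a log2 fold change of 2.23. Thbs3 passed at 0.40 with TMM but was at -0.02 with library totals and -0.34 with TPM.

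In the SPARC family, 3 of the 6 tested paralogs were lower, 2 were higher and Smoc1 did not pass. Their median log2 fold change was -0.27. Sparcl1, the closest relative of Sparc and a counter-adhesive protein of vessels and muscle, went opposite to it. Sparcl1 averaged 46.93 ± 0.923 FPKM in knockout-labelled femora and 21.74 ± 0.892 FPKM in controls (SD, n = 3 each). Its log2 fold change was 1.54 (edgeR adjusted p = 2.9e-12). Smoc2 and Fstl1 were lower, at -0.78 and -0.69. Spock2 was at 0.71, but at -0.05 with TPM.

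Of the 15 elastic fibre and microfibril genes, which build the structures fibrillin-1 belongs to, 9 were lower and 6 were higher. The median of their log2 fold changes was -0.31. Emilin1 and Efemp2, which are needed to assemble elastic fibres, were lower at -1.17 and -1.18. Ltbp4, which tethers latent TGF-beta to microfibrils, and Fbln2 were higher at 1.02 and 1.17. Of 8 other adhesive matrix glycoproteins, 5 fell, 2 rose and Tgfbi did not pass. With library totals 6 fell and 1 rose, beside 10339 lower and 3379 higher among all 20388 genes tested. The lowered adhesive glycoproteins included Ecm1 at -0.97, Edil3 at -1.18, Npnt at -0.86 and Mfge8 at -0.42.

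Among 19 receptors for these proteins, 12 fell, 4 rose and 3 did not pass. With library totals 14 fell and 4 rose, beside 10339 lower and 3379 higher among all 20388 genes tested. The median log2 fold change of the receptors with TMM was -0.42. Itgav, the integrin subunit that pairs to bind fibronectin, periostin and other ligands, averaged 4.836 ± 0.152 FPKM in knockout-labelled femora and 19.15 ± 0.791 FPKM in controls (SD, n = 3 each), at -1.56. Sdc1, a heparan sulfate proteoglycan, and Lrp1, an endocytic receptor of thrombospondins, were at -2.34 and -1.23. Cd36 went the other way, averaging 64.59 ± 0.176 FPKM in knockout-labelled femora and 30.22 ± 0.965 FPKM in controls (SD, n = 3 each), at 1.52. Cd36 is also a fatty acid carrier of muscle and fat. The 5 adipocyte markers were all higher, summing to 256.2 to 264.9 FPKM in knockout-labelled femora and 24.68 to 27.25 FPKM in controls. The part of muscle and fat in the Cd36 difference was not tested.

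Of the 8 adaptors that link integrins to actin, 5 fell, 1 rose and Ptk2 and Vcl did not pass. With library totals 7 fell and 1 rose, beside 10339 lower and 3379 higher among all 20388 genes tested. Tln1, Pxn and Parva were lower at -0.34, -0.48 and -0.69, and Fermt2 was higher at 0.99. The median log2 fold change of the adaptors was -0.29.

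**Figure D5:**
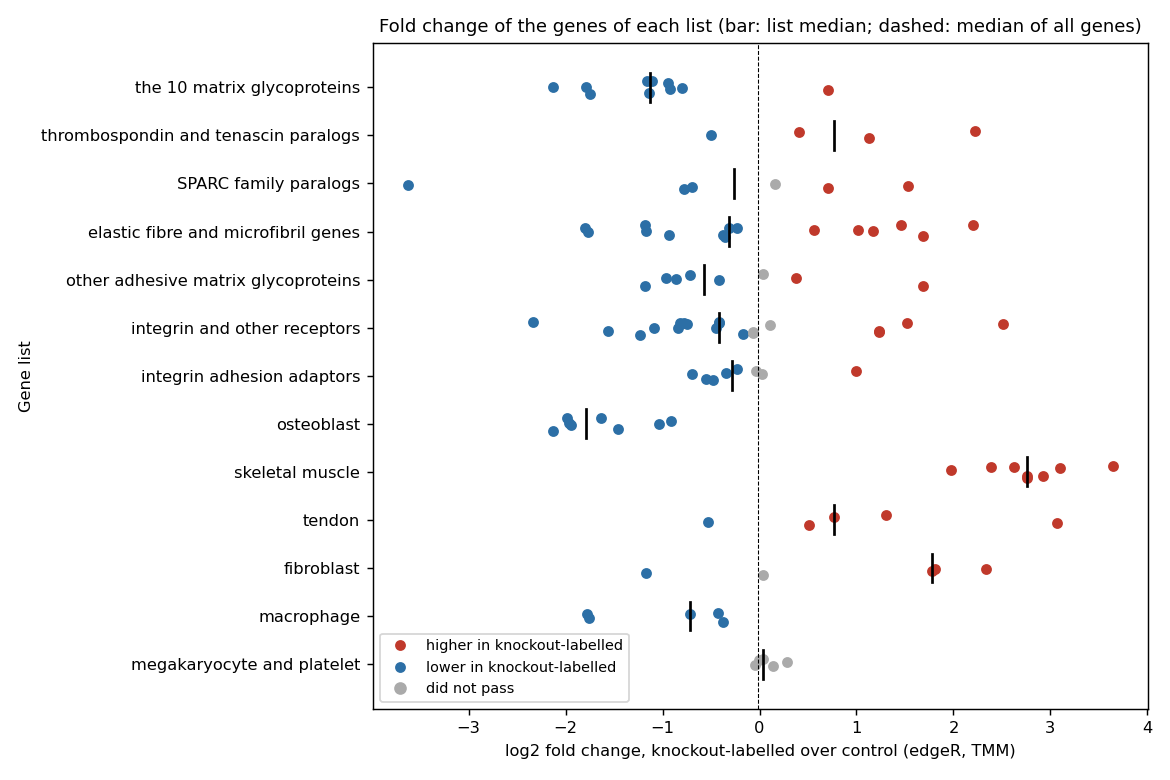
Log2 fold change (knockout-labelled over control, edgeR with TMM) of every tested gene in the list of 10, in 6 lists of related genes and in 6 marker lists, with a bar at each list's median and a dashed line at the median of all genes. The 10 glycoproteins have a median of -1.13, the related lists lie between -0.57 and 0.77, osteoblast markers are at -1.79 and skeletal muscle markers at 2.76.

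The other cell type markers moved in both directions beside these genes. All 7 osteoclast, 5 macrophage and 4 neutrophil markers were lower, and all 4 erythroid markers were higher. Among connective tissue sources, 4 of 5 tendon markers were higher and 1 was lower (2 and 2 with TPM). Of 5 fibroblast markers 3 were higher, 1 was lower and Pi16 did not pass, while 2 were lower with library totals and with TPM. Of the 5 chondrocyte markers tested 3 were higher and 2 were lower, and with library totals 2 were higher and 2 were lower. With TPM, after the filter on FPKM, 0 were higher and 1 was lower. The chondrocyte list summed to 50.29 to 51.44 FPKM in knockout-labelled libraries, against 293.9 to 302.3 FPKM in controls. Col2a1, which was lower, averaged 48.81 FPKM in knockout-labelled femora and 295.4 FPKM in controls. Acan, Sox9 and Col10a1, which were higher, averaged 0.6871, 1.046 and 0.205 FPKM in knockout-labelled femora, against 0.2196, 0.6154 and 0.1042 FPKM in controls. For Col10a1 the groups overlapped. Of the 6 endothelial markers 3 were higher, 2 were lower and Tek did not pass, but all 6 were lower with library totals and with TPM. Under those scalings 10339 of 20388 and 10738 of 13778 genes tested were lower. Of the 4 osteocyte markers, Dmp1 was lower, Sost and Mepe were higher, and Fgf23 did not pass, while with library totals 2 were lower and 1 was higher. None of the marker genes was at 0 in all libraries, and the part of these cell types in the 10 genes was not tested.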

How the data were processed

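RNA from 6 femora was sequenced as 150-base pairs from stranded poly(A) libraries, per the labels' protocols. Per the submitters' processing notes, the build was GRCm39 and the tools included HISAT2, StringTie, RSEM and fastp, whose versions, settings and roles are not stated there. The authors deposited FPKM values and estimated counts per gene and transcript. The deposited expected counts equal FPKM times length and a constant, within 1 count, for 98.53% to 98.66% of transcript values, and low counts pile up at multiples of 4.

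Counts were rounded and tested with edgeR 4.0.16 (R 4.3.3; filterByExpr, TMM, quasi-likelihood F test, two-sided) with group as the only term and Benjamini-Hochberg adjustment at 0.05 over all features. SE values come from log2 CPM with a prior count of 2. Depth per library was 65.8 to 73.5 M counts. Alternatives used DESeq2 1.42.0 and limma 3.58.1 (on log2(FPKM + 1), keeping genes that reached 1 FPKM in 3 libraries). On simulated counts for this comparison (19878 genes), edgeR recovered 48 of 67 genes changed 1.5-fold, 60 of 67 changed 2-fold and 66 of 66 changed 4-fold. With the spread of real transcripts it recovered 0 of 67, 0 of 67 and 0 of 66 transcripts at these folds among 44416. A transcript that did not pass therefore carries little weight. In these simulations edgeR also called 10 unchanged genes and 0 unchanged transcripts. Few features were changed in them, whereas 57.5% of genes and 18.1% of transcripts passed in the data. Recovery after adjustment over all features may therefore differ from that in the data.

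The 10 genes and all lists were chosen with earlier results of these data known. Genes named outside the 10 are up to 4 per related list by adjusted p, the 6 most alike, and genes named where a list count left few. Chondrocyte markers are also named, to give their levels. Groups come from the treatment label and replicate numbers from the titles. Promoters are RefSeq's, and exons come from GENCODE M21; both are on GRCm38 and were matched by name, never by coordinates. No protein sequence was used here.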

Additional observations from a re-analysis of the deposited data

How the results depend on the processing

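Across 18 alternative settings, 179 of 180 log2 fold changes of the 10 genes kept their direction and side of the threshold, as did 425 of 432 of the other named genes. Of 468 counts of marker list genes, 422 stayed within 1.5 times the main count. With TPM, Tnn was at -0.062, no member was called higher (0), Thbs3 was at -0.339, Spock2 at -0.054, the thrombospondin and tenascin paralogs had 2 lower and the SPARC family 1 higher, also 1 with log2(FPKM + 1) unfiltered. Thbs3 was at -0.018 with library totals, -0.02 with log2(FPKM + 1), filtered or not, and -0.026 with log2(FPKM + 0.1). The other adhesive glycoproteins had 1 higher gene with library totals and in all 4 limma settings on FPKM or TPM.

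Over all genes, the lower and higher calls were 10339 and 3379 with library totals, 10738 and 1832 with TPM, and 10239 and 3306 with unfiltered log2(FPKM + 1), against 5872 and 5860. These settings differ in the genes tested, which numbered 13778 with TPM and filtered FPKM, 31524 with unfiltered FPKM and 20388 with library totals and TMM. Higher calls were 2822 with log2(FPKM + 1) and 2819 with log2(FPKM + 0.1). The cause was not tested, beyond the shift of the median gene.

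Ratios of FPKM + 1 gave log2 differences of 0.719 for Fn1 to Sparc, 0.912 for Thbs2, 1.013 for Fbn1, -0.192 for Cthrc1 and 0.098 for Thbs1 to Thbs2. Lowered transcripts of the 10 genes numbered 29 with library totals, 12 unfiltered, 31 with DESeq2 and 9 to 19 when 1 library was left out. Same-numbered libraries did not deviate together (correlations 0.00515, 0.00311 and -0.00898), and not every library correlated best with its own number. With replicate number as a block, 9 of the 10 genes were lower, 1 was higher, and 11 transcripts were lower.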
